A study of Mus musculus with 4 samples.

Results

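The machinery that drives a cell through its cycle was followed here through 44 genes taken by symbol: cyclins, cyclin-dependent kinases (CDKs) and their inhibitors, the retinoblastoma and E2F factors, the CDC25 phosphatases and WEE1, mitotic kinases, the anaphase factors *Cdc20* and *Ube2c*, the MCM helicase and 4 common proliferation marks. All 44 were found, once each, among the 30828 genes of both deposited matrices. They were measured in single testis cells of mice at postnatal day (P) 8, collected by flow sorting for the surface proteins CD9 and THY1 to favour germ cells and sequenced from the 3′ end of each mRNA on the 10x Genomics platform. Controls were labelled wild-type. *Cnot3*-cKO animals carried floxed *Cnot3* alleles and *Ddx4*-creER, a Cre recombinase made in germ cells and switched on by 4-hydroxytamoxifen (4-OHT). *Cnot3* encodes a subunit of CCR4-NOT, the complex that shortens mRNA poly(A) tails, and the study asked how its loss affects spermatogonia. Whether the sequenced controls carried floxed alleles was not given for these animals. Both genotypes are labelled as injected with 4-OHT from P1, but the last day of injection differs between the 4 sample labels, from P1 to P4, with the later days in *Cnot3*-cKO. The methods give P1 to P3 for neonates. Genotype and labelled injection days therefore cannot be told apart.

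Progress through the cell cycle depends on cyclins that appear in turn and switch on CDKs. D and E cyclins act in G1, where CDK4, CDK6 and CDK2 lift the block that RB proteins place on E2F factors, and A and B cyclins with CDK1 carry cells through G2 into mitosis. CDC20 and the ubiquitin-conjugating enzyme UBE2C then help the anaphase-promoting complex destroy B cyclins, and the mRNAs of these late genes accumulate in G2 and M phase. In the neonatal testis, spermatogonial stem cells (SSCs), progenitors and differentiating spermatogonia divide by mitosis, and so do immature Sertoli cells and many interstitial cells.

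Many late cell cycle genes share short promoter motifs, the CCAAT box and the CHR element, while replication genes often carry E2F motifs. The promoters of 4 members whose levels were higher in *Cnot3*-cKO than in control germ-like cells below are shown here for that reason. Each is the 120 bases before the annotated start, written 5′ to 3′ on the gene's own strand, from RefSeq on GRCm38.p6. Capitals mark a CCAAT box (CCAAT or ATTGG), a CHR (TTTGAA or TTCGAA, or the complement TTCAAA) or an E2F motif (TTCCCGC or TTGGCGC, or their complements GCGGGAA and GCGCCAA). The *Ccnb1* stretch lies at chr13:100786487-100786606 on the minus strand, *Cdc20* at chr4:118437344-118437463 on the minus strand, *Cdc25b* at chr2:131186828-131186947 on the plus strand and *Aurka* at chr2:172370571-172370690 on the minus strand.
Ccnb1: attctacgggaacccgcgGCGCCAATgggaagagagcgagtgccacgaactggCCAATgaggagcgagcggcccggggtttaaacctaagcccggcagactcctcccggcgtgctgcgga
Cdc20: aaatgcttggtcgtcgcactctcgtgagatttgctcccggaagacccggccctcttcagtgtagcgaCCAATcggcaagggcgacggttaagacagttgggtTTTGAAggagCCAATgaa
Cdc25b: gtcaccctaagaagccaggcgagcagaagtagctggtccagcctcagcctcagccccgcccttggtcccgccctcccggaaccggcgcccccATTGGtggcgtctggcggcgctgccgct
Aurka: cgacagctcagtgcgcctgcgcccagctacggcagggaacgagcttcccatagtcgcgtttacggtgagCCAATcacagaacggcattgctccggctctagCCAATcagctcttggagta
In *Ccnb1*, an E2F motif overlaps the first CCAAT box, so that its capitals run together. Promoter windows were matched for 35 of the 44 members, some with more than 1 start, giving 40 windows of 250 bases before the start. A CCAAT box on either strand was found in 30 of the 40 windows (75.0%), against 33.83% of all 32817 promoter windows of that length. A CHR was found in 13 (32.5%, against 17.14% of all windows), and an E2F motif in 12 (against 5.61% of all windows). All 11 matched members among the A and B cyclins, the CDC25 and WEE1 group, the mitotic kinases and the anaphase factors held a CCAAT box, and so did all 6 windows of the MCM genes. A match describes the letters only and shows no binding.

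The deposited files hold 1 matrix per genotype, in which the reads of its 2 labelled samples, titled by sequencer, were merged. Whether these samples were 1 library sequenced on 2 instruments or separate libraries is not given. Each genotype is therefore treated as 1 library without replicates, and no test of genotype was possible. Reads were counted as unique molecular identifiers (UMIs), each standing for 1 captured mRNA, and levels are given as CPM, the UMIs of a gene per 1000000 UMIs of the cells described. Intervals are exact 95% intervals that cover counting error only. In all, 8259 control and 9268 *Cnot3*-cKO barcodes were kept, and 18 of the called barcodes had the same sequence in both libraries. Clusters were formed without the 44 members and other cell cycle genes and named from marker lists: 1334 control and 560 *Cnot3*-cKO cells were germ-like (median 42276 and 46152 UMIs per cell), 2884 and 4362 Sertoli-like (13288 and 12759), and 3702 and 3933 interstitial (13850 and 12949). Class shares also reflect the CD9/THY1 sort. As likely doublets, Scrublet marked 14.1% of the germ-like cells in the control library and 13.2% in the other, which were kept and left out in an alternative. Transcripts shared with empty barcodes made up an estimated 9.13% and 6.95% of germ-like UMIs, as judged from Sertoli transcripts. Within the germ stages named below, the same estimate was 2.01% and 2.13% in SSC-like and 2.27% and 2.10% in differentiating-like cells. Stroma markers summed to 925 and 779 CPM in germ-like cells, and hemoglobin and other erythroid markers summed to 0.579 and 352 in Sertoli-like and 151 and 1.57 in interstitial cells. The part of any of these in the differences below was not tested. The *Cnot3* level itself in germ-like cells was 71.1 CPM in the control library against 39.4 (log2 ratio −0.85, −0.95 to −0.75), against 63.8 and 67.5 in Sertoli-like and 45.5 and 44.9 in interstitial cells. Because reads come from the 3′ end, which may lie outside the deleted exons, this level checks the label only in part. *Mcm7*, *Cdk2*, *Cdk4*, *Cdk6*, *Ccnd1*, *Ccnd2*, *Ccnd3*, *Ccne2*, *Ccna1*, *Ccna2*, *Rb1*, *E2f3*, *Cdc25b*, *Cdc25c*, *Wee1*, *Cdc20* and *Ube2c* overlap genes on the other strand, and *Rb1* also *Gm17233* on its own, and their counts are uncertain where strand was not used, which the sources used here do not give.

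In control testis, most of the 44 genes were highest in germ-like cells. Of the 5 named classes, germ-like cells had the highest control level for 27 members, Sertoli-like cells for 6, macrophage-like for 5 and endothelial-like and interstitial cells for 3 each. The endothelial-like (37 cells) and macrophage-like (55 cells) classes were small. The median log2 ratio of germ-like over Sertoli-like cells was 0.997 over the 43 members with at least 100 UMIs, against 0.19 over all genes with that many. Of these members, 26 were past 1.5-fold higher and 7 past 1.5-fold lower, where 38.9% of all genes were past it in the first direction and 29.9% in the second. Against interstitial cells the median was 1.68, with 34 members past 1.5-fold higher and 4 lower (43.6% and 30.3% of all genes).

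*Ccnd1*, a D cyclin that activates CDK4 and CDK6, separated germ-like from Sertoli-like cells most widely, at 118 against 2.08 CPM in control cells (log2 ratio 5.83, 5.53 to 6.16). Endothelial-like cells held still more, at 162 (131 to 197), and interstitial cells held 5.13. The other D cyclins had other orders. *Ccnd2* was highest in Sertoli-like cells at 501, then interstitial at 299 and germ-like at 206, while *Ccnd3* was highest in interstitial cells at 201 and lowest in Sertoli-like cells at 29.997. Each of the 3 D cyclins was therefore highest in a different class.

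Of the 4 CDK inhibitors, *Cdkn1b*, *Cdkn2c* and *Cdkn2d* ran the other way, lower in germ-like than in Sertoli-like or interstitial cells. *Cdkn2b*, encoding p15, was highest in germ-like cells at 5.73 CPM against 2.49 in Sertoli-like and 1.37 in interstitial cells. *Cdkn2d* was at 17.0 in germ-like, 32.8 in Sertoli-like and 23.8 in interstitial cells. *Cdkn1b*, which encodes p27 and holds CDK2 in check, was lowest of the 5 classes in germ-like cells at 10.6 CPM and highest in interstitial cells at 40.5. *Cdkn2c*, encoding the CDK4 and CDK6 inhibitor p18, stood at 6.29 in germ-like cells and 43.1 in interstitial cells. *Cdk1*, the mitotic CDK, was also lowest in germ-like cells at 66.0 and highest in Sertoli-like cells at 145, although *Ccnb1*, its B cyclin partner, was highest in germ-like cells at 173. *Cdc20* (139) and *Mcm5*, a subunit of the replicative helicase (132), were highest in germ-like cells as well. The heat map of levels by class sets the 44 genes side by side.

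**Figure D1:**
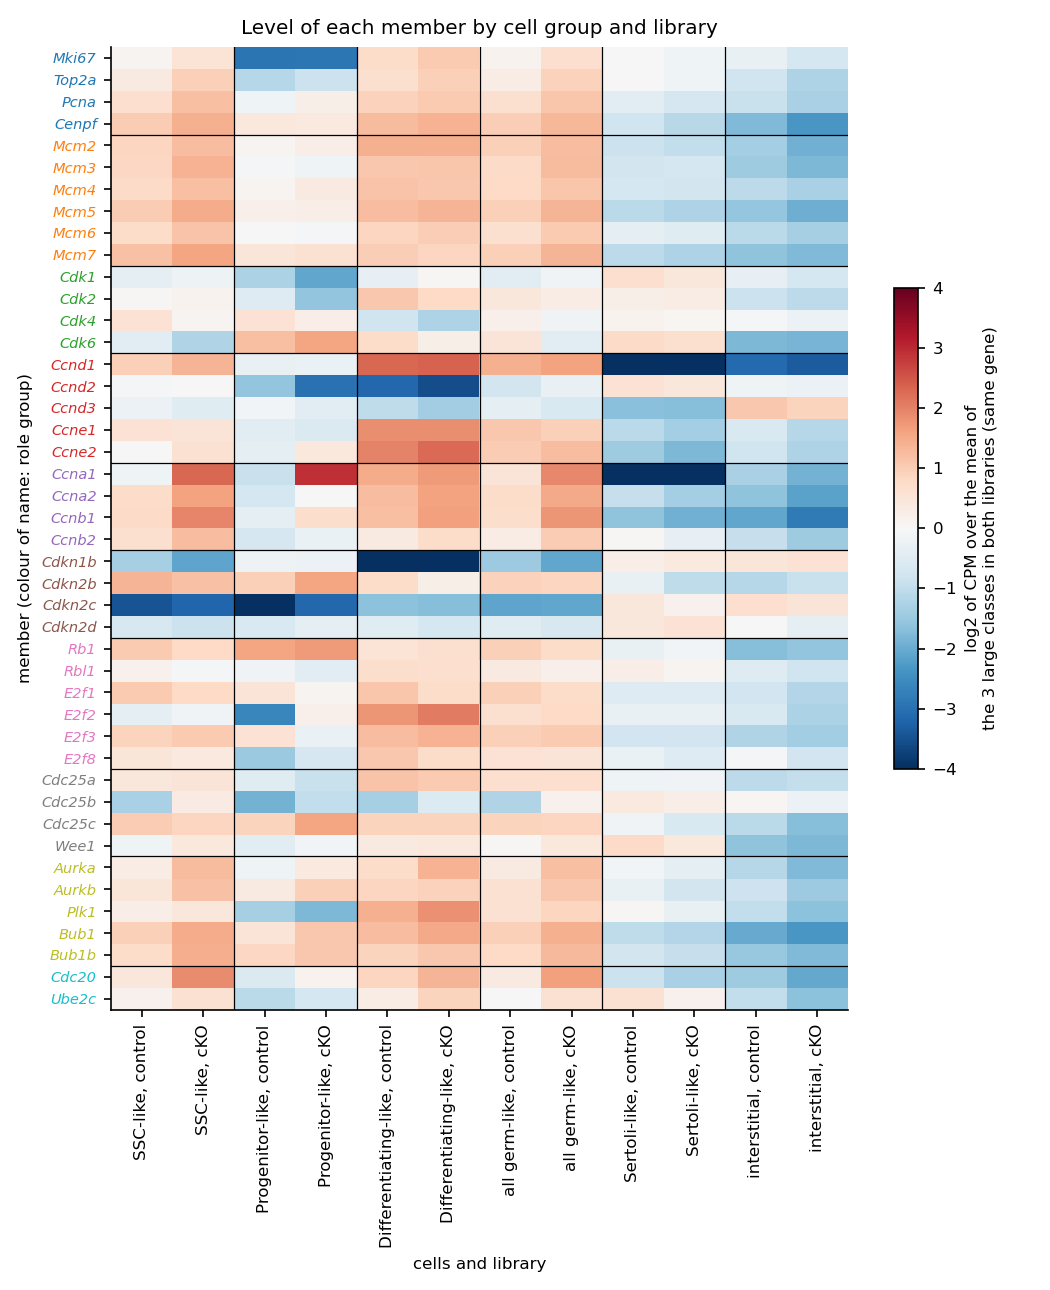
Level of each of the 44 genes (vertical axis, ordered by role) in SSC-like, progenitor-like, differentiating-like, all germ-like, Sertoli-like and interstitial cells of the control and *Cnot3*-cKO libraries (horizontal axis). Colour gives the log2 of CPM over that gene's mean across the 3 large classes in both libraries, with the scale ending at 4 in either direction, and grey marks 0 UMIs. Most genes are redder in germ-like columns, while *Cdkn1b* and *Cdkn2c* are bluer there.

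Within the control germ line, the members separated the stages. Clusters were named SSC-like (416 control and 323 *Cnot3*-cKO cells), progenitor-like (198 and 6) and differentiating-like (421 and 127), and 299 and 104 germ-like cells stayed without a stage, 62.9% and 69.2% of them marked as likely doublets. The differentiating-like stage had the highest control level of 33 members, the SSC-like stage of 6 and the progenitor-like stage of 5. Progenitor-like cells had the lowest proliferative levels. Their median log2 ratio over SSC-like cells was −0.67 over 41 members, with 22 past 1.5-fold lower and 2 higher, against 8.4% and 9.28% of all genes and an all-gene median of 0.02. *Mki67*, the gene of the Ki-67 antigen of cycling cells, stood at 98.4 CPM in SSC-like, 12.1 in progenitor-like and 154 in differentiating-like cells. *Plk1*, a kinase of mitotic entry, followed the same order at 25.7, 8.47 and 56.7.

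The G1 regulators differed along the same stages. *Ccnd2* went from 327 CPM in SSC-like to 114 in progenitor-like and 38.4 in differentiating-like cells, and *Ccnd1* ran from 85.6 and 35.95 to 221. Both E cyclins, which act at the entry to S phase, were highest in the differentiating-like stage, *Ccne1* at 33.1 and *Ccne2* at 45.3. *Cdkn1b* was highest in progenitor-like cells at 25.3, with 11.4 in SSC-like and 0.664 in differentiating-like cells. *Cdk6* also peaked in progenitor-like cells at 66.5, with 21.4 in SSC-like and 48.3 in differentiating-like cells, while *Cdk4* stood at 319, 321 and 124. The clusters drew this out further: *Ccnd2* reached 594 in the SSC-like cluster led by *Lhx1* and *Id4* and 6.38 in the differentiating-like cluster led by *Prss50* and *Esx1*, and *Cdk6* was seen as a single UMI in the first of these (0.326 CPM) and at 64.6 in the *Kit*-led differentiating-like cluster. The stages were named from other genes than the 44.

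In germ-like cells, *Cnot3*-cKO was higher than control for most of the cell cycle genes, and the widest differences were in genes of G2 and mitosis. Of 43 members with at least 100 UMIs over both libraries, 29 had a higher and 14 a lower level in *Cnot3*-cKO, where 52.5% of all genes were higher. The interval lay above 0 for 27 and below 0 for 8, against 31.2% and 26.5% of all genes. The median log2 ratio was 0.30, against 0.02 over all 13298 genes with as many UMIs. Past 1.5-fold, 8 members were higher and 2 lower, where 6.71% of all genes were past it upward and 3.15% downward. The 8 were *Cdc25b*, *Cdc20*, *Ccnb1*, *Aurka*, *Ccna2*, *Ccnb2*, *Top2a* and *Ube2c*, and the 2 were *Cdk6* and *Cdkn1b*. *Ccna1*, a germ cell A cyclin known from meiosis, stayed under the minimum with 33 and 40 UMIs.

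By role, the median log2 ratio was highest for the anaphase genes, at 0.94 over 2 members, and next for the A and B cyclins, at 0.80 over 3 measured members. *Ccnb1*, the cyclin that activates CDK1 at mitotic entry, was at 173 CPM in control against 365 in *Cnot3*-cKO, a 2.11-fold difference (log2 ratio 1.08, 1.04 to 1.12). *Ccna2*, which serves S phase and G2, was at 134 and 234 (0.80, 0.75 to 0.85), and *Ccnb2* at 84.6 and 141 (0.74, 0.68 to 0.80). All 3 were higher in *Cnot3*-cKO. Of the anaphase genes, *Cdc20*, the activator of the anaphase-promoting complex, was at 139 in control and 339 in *Cnot3*-cKO (1.29, 1.24 to 1.33). *Ube2c* was at 133 and 200 (0.59, 0.53 to 0.64), close to the 1.5-fold limit, which lies at 0.58 on the log2 scale.

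*Cdc25b*, a phosphatase that removes the inhibitory phosphate from CDK1, had the widest ratio of the members above the minimum, at 5.201 CPM in the control library and 13.5 in *Cnot3*-cKO (log2 ratio 1.38, 1.15 to 1.61). It rested on 295 and 351 UMIs. For the other phosphatases of its family the intervals included 0, with ratios of −0.01 for *Cdc25a* and −0.03 for *Cdc25c*. *Wee1*, the kinase that places that phosphate, was at 58.1 and 74.4 (0.36, 0.28 to 0.44). Among the mitotic kinases, *Aurka*, which builds the spindle poles, was at 27.0 and 48.5 (0.84, 0.73 to 0.95). The 4 others of the group, *Aurkb*, *Plk1*, *Bub1* and the checkpoint gene *Bub1b*, were all higher by less than 1.5-fold, from 0.26 for *Plk1* to 0.50 for *Bub1b* (78.0 and 111, 0.44 to 0.57). *Cdk1* differed less than its cyclins, at 66.0 and 81.3 (0.30, 0.22 to 0.38).

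The replication genes differed less but in 1 direction. All 6 MCM subunits, which unwind DNA at the fork, had log2 ratios between 0.27 (*Mcm2*) and 0.51 (*Mcm3*). *Mcm7*, the best counted of them, was at 232 in control and 309 in *Cnot3*-cKO (0.41, 0.37 to 0.45). *Pcna*, the sliding clamp of DNA polymerase, was at 89.7 and 124 (0.47), with a pseudogene copy in the annotation that could take some of its UMIs. *Top2a*, the topoisomerase that untangles replicated chromosomes, was at 203 and 312 (0.62, 0.58 to 0.66). *Mki67* was at 101 and 147 (0.54, 0.48 to 0.60) and *Cenpf*, a kinetochore gene with the most UMIs of all members, at 552 and 700 (0.34, 0.32 to 0.37).

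The genes of G1 control were lower or level in *Cnot3*-cKO germ-like cells, apart from *Ccnd1*, *Ccnd2* and *Ccne2*. *Cdk6* was at 41.7 in control and 20.9 in *Cnot3*-cKO, 1.99-fold lower (log2 ratio −0.99, −1.13 to −0.86). *Cdk4* was at 244 and 194 (−0.33, −0.37 to −0.28) and *Cdk2*, the partner of the E cyclins, at 37.0 and 33.3 (−0.15). *Cdkn1b* was at 10.6 and 6.79 (−0.64, −0.89 to −0.40), while *Cdkn2d*, encoding the inhibitor p19, was at 17.0 and 15.04 (−0.18, −0.35 to −0.01). *Ccnd2* was at 206 and 273 (0.41, 0.37 to 0.45), *Ccnd1* at 118 and 136 (0.20) and *Ccnd3* at 72.0 and 62.4 (−0.21).

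The RB and E2F group lay near 0, with a median log2 ratio of −0.11. *E2f1*, the activating E2F of the group with most UMIs, was at 54.9 in control and 46.9 in *Cnot3*-cKO (−0.23, −0.33 to −0.13), and *Rb1* was at 29.3 and 25.4 (−0.21). The intervals of *E2f2*, *E2f8*, *Rbl1*, *Ccne1*, *Cdkn2b*, *Cdkn2c*, *Cdc25a* and *Cdc25c* included 0, so that no difference was detectable for these 8 at this depth. *E2f3* had a ratio of 0.11. E2F factors switch on the MCM genes and *Ccna2* in textbook accounts.

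**Figure D2:**
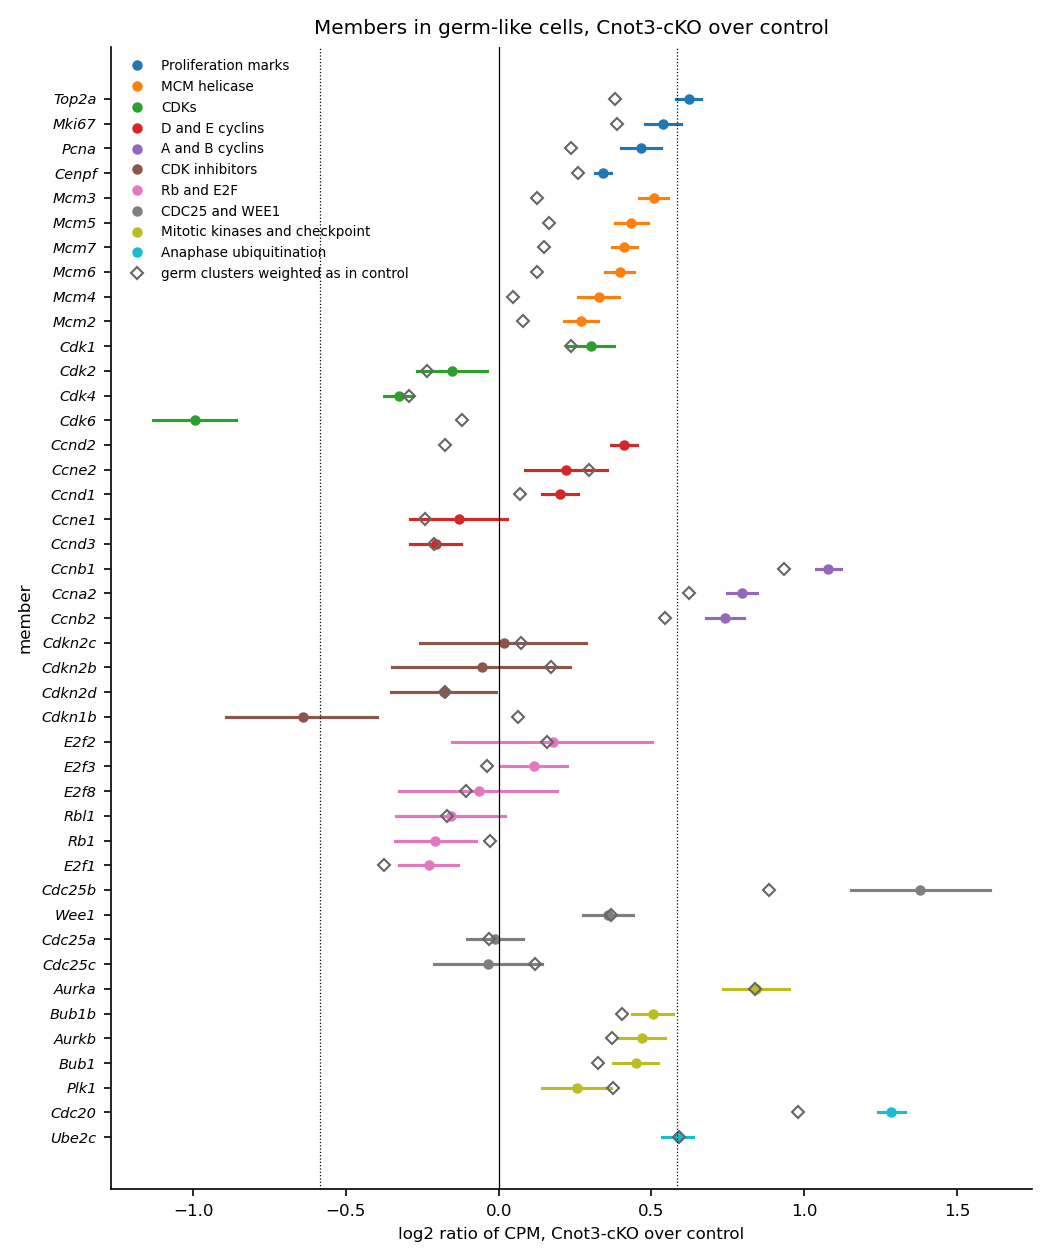
Log2 ratio of *Cnot3*-cKO over control CPM in germ-like cells (horizontal axis) for the 43 genes with at least 100 UMIs (vertical axis), coloured by role. Points are single-library ratios, bars are exact 95% counting intervals, open diamonds are ratios with both libraries given the control mix of germ clusters, and dotted lines mark 1.5-fold. *Cdc25b*, *Cdc20* and *Ccnb1* lie farthest right, and the diamonds of *Cdk6* and *Cdkn1b* lie near 0.

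The libraries differed in their mix of germ cells, and this touched some members more than others. When each germ cluster was given its control weight, *Ccnb1* had a ratio of 0.94, *Cdc20* of 0.98, *Cdc25b* of 0.89 and *Aurka* of 0.84. *Ccna2* came to 0.62 and *Ube2c* to 0.59, so that these 6 stayed past 1.5-fold, *Ube2c* only just. The reweighted ratios have no interval, and they lean in part on clusters that were large in control but held few *Cnot3*-cKO cells. *Ccnb2* came to 0.54 and *Top2a* to 0.38. The MCM genes came to between 0.05 and 0.16. *Cdk6* moved from −0.99 to −0.12, *Cdkn1b* from −0.64 to 0.06 and *Ccnd2* from 0.41 to −0.18, whereas *Cdk4* stayed at −0.30 and *E2f1* came to −0.37. *Cdk6* and *Cdkn1b* were both highest in progenitor-like cells, of which *Cnot3*-cKO held 6.

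Stage by stage, SSC-like cells showed the wider differences. There, 10 members were past 1.5-fold higher and 2 lower of 41 counted, where 9.23% of all genes were past it upward and 4.64% downward, and the median was 0.41. *Cdc20* was at 146 in control and 400 in *Cnot3*-cKO SSC-like cells (1.45, 1.38 to 1.52), *Ccnb1* at 182 and 415 (1.19, 1.13 to 1.25) and *Cdc25b* at 4.91 and 15.2 (1.63, 1.26 to 2.01). *Aurka* (0.95), *Ccna2* (0.88), *Bub1b* (0.72), *Aurkb* (0.69), *Ccne2* (0.64), *Top2a* (0.61) and *Wee1* (0.59) were the others higher, and *Cdk6* (−0.77) and *Cdkn1b* (−0.75) were lower. In differentiating-like cells the median was 0.08 over 42 members, with *Cdc25b* (4.83 and 8.16, 0.76), *Aurka* (34.9 and 55.6, 0.67) and *Ube2c* (159 and 241, 0.60) past 1.5-fold higher and no member past it lower, against 2.09% of all genes in each direction. *Ccnb1* was at 246 and 337 there (0.45) and *Cdc20* at 194 and 274 (0.50). The difference between the stages was not tested.

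A large share of the *Cnot3*-cKO SSC-like cells had no control counterpart. A cluster led by *Nefm*, *Capg*, *Krt18*, *Cdkn1a* and *Cdc20* held 253 *Cnot3*-cKO cells and 1 control cell, so that a cell state and the library cannot be told apart in it. Its levels were 428 CPM for *Ccnb1*, 417 for *Cdc20*, 48.9 for *Aurka*, 324 for *Ccnd2*, 13.5 for *Cdk6* and 5.41 for *Cdkn1b*. In the largest SSC-like cluster of control cells *Cdkn1b* was at 13.2 against 16.2 CPM, control first, on 179 and 21 UMIs (log2 interval −0.43 to 0.95). The *Lhx1*-led cluster held 11 and 16 UMIs of it, under the minimum. *Cdk6* was at 26.2 against 18.5 in the former cluster, with an interval of the log2 ratio from −1.16 to 0.096. With the clusters held by 1 library left out, 4 of the 43 members were past 1.5-fold higher and 0 lower in germ-like cells, where 6.31% and 2.13% of all genes were, and the median was 0.22.

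The clusters with at least 20 cells in both libraries gave the same comparison 6 times. Some of these clusters had no stage, and most germ-like cells without a stage were marked as likely doublets. Of 30 members with enough UMIs in all 6, 11 were higher in *Cnot3*-cKO in every one, against 13.6% of 5535 genes counted the same way: *Mki67*, *Top2a*, *Cenpf*, *Ccna2*, *Ccnb1*, *Ccnb2*, *Aurka*, *Plk1*, *Bub1b*, *Cdc20* and *Ube2c*. The interval lay above 0 in every one for *Ccnb1*, *Aurka*, *Bub1b* and *Ube2c*, as it did for 1.39% of all genes. Over the 6 clusters, the log2 ratios themselves ran from 0.30 to 1.41 for *Ccnb1* and from 0.46 to 1.33 for *Aurka*. They ran from 0.27 to 0.58 for *Bub1b* and from 0.32 to 0.93 for *Ube2c*. *Cdk4* (ratios from −0.41 to −0.19) and *E2f1* were lower in every one, against 11.3% of all genes. The interval of *E2f1* lay below 0 in only 4 of the 6. *Cdk6* had enough UMIs in 5 of the 6 and was higher in *Cnot3*-cKO in 1 of these. Its interval lay below 0 in 3, and 2 were past 1.5-fold lower, with ratios from −0.75 to 0.10. *Cdc25b*, the member with the widest ratio over all germ-like cells, was not among the 30 with enough UMIs. The clusters come from the same 2 libraries and are not replicates.

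Between clusters the size of these ratios differed. In the SSC-like cluster with 335 control and 28 *Cnot3*-cKO cells, *Ccnb1* had a log2 ratio of 1.41, *Cdc20* of 1.43 and *Aurka* of 1.33, and 14 members were past 1.5-fold higher and 2 lower (3.85% and 9.62% of all genes). The *Lhx1*-led cluster gave 1.04, 1.52 and 1.20, with 7 and 1 past 1.5-fold (5.34% and 3.85%). In the *Kit*-led cluster the ratios were 0.66, 0.80 and 0.61, with 5 and 0 (3.02% and 2.86%), and in the *Prss50*-led cluster 0.30, 0.09 and 0.66, with 1 and 1 (1.12% and 1.2%). For *Cdc20* no difference was detectable in the *Prss50*-led cluster, where the interval ran from −0.06 to 0.24.

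**Figure D3:**
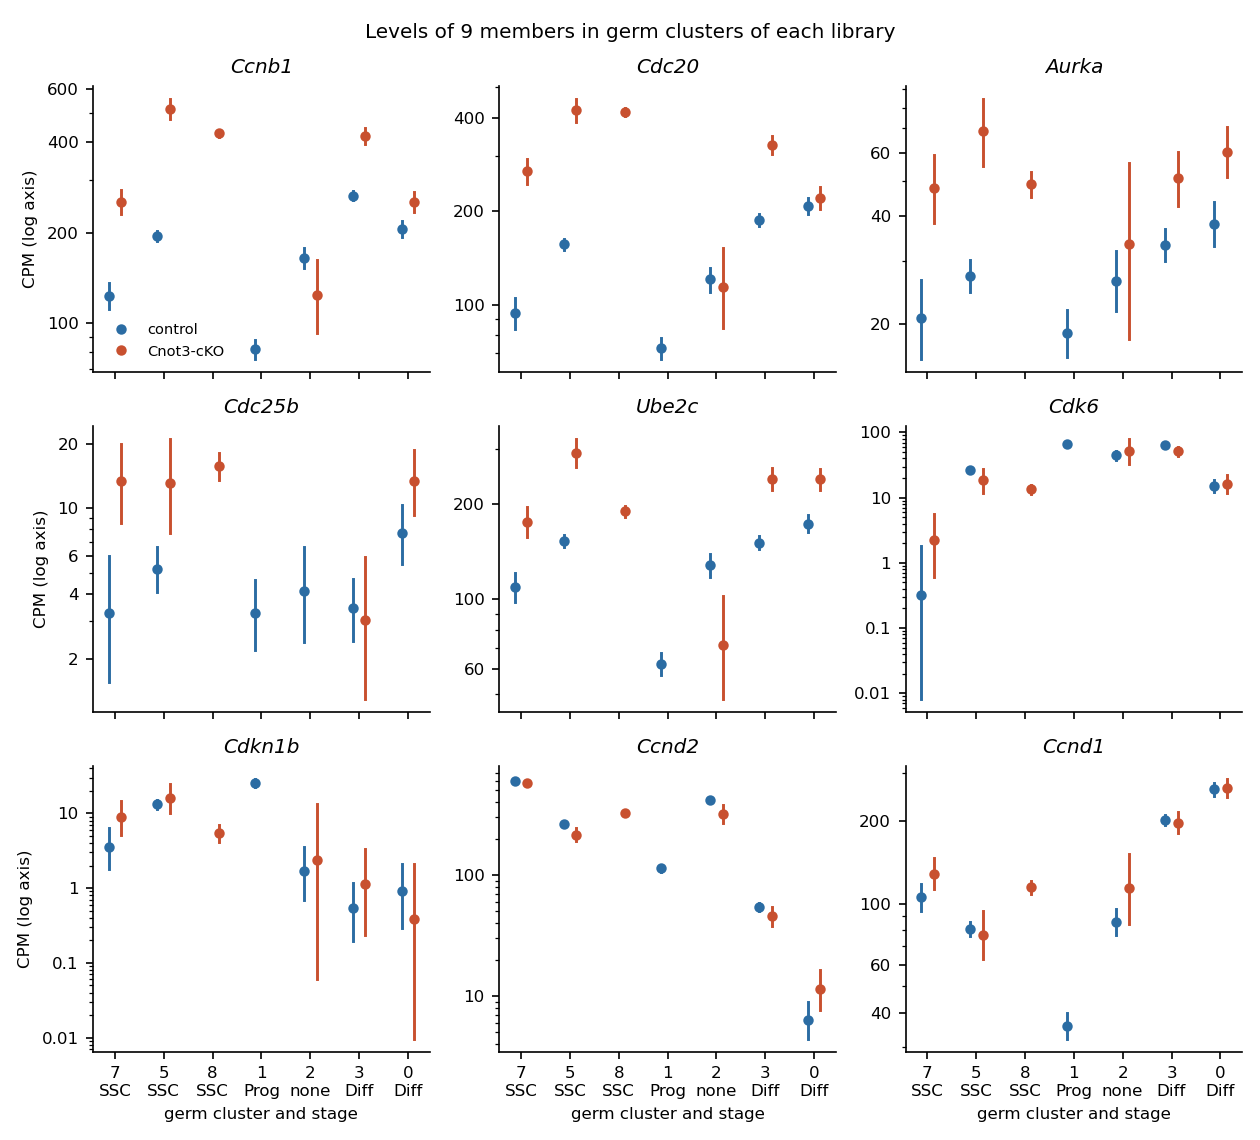
CPM (vertical axes, log scale) of 9 genes in the germ clusters (horizontal axis, SSC-like to differentiating-like) of the control and *Cnot3*-cKO libraries, with exact 95% counting intervals. Cluster 7 is the *Lhx1*-led, 5 the largest control and 8 the nearly all *Cnot3*-cKO SSC-like cluster, 1 is progenitor-like, 2 has no stage, 3 is *Kit*-led and 0 *Prss50*-led, and groups under 7 cells are not drawn. *Ccnb1*, *Cdc20* and *Aurka* are higher in *Cnot3*-cKO in the shared SSC-like clusters, and *Ccnd2* and *Cdk6* differ more between clusters than between libraries.

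To set the members against position in the cycle, the cells of each class were divided into quartiles of the share of UMIs in 36 other G2/M genes, none of them members. In germ-like cells, 20.8% of control and 34.8% of *Cnot3*-cKO cells fell in the highest quartile and 31.6% and 9.29% in the lowest. Over quartiles of 35 S phase genes, 22.5% and 30.9% fell in the highest and 30.7% and 11.4% in the lowest. In control germ-like cells, 32 of 43 members were past 1.5-fold higher in the highest than the lowest G2/M quartile and 5 lower, against 14.3% and 20.7% of all genes. *Plk1* went from 8.13 to 84.8 CPM, *Mki67* from 18.3 to 223 and *Ccnb1* from 65.4 to 358. *Ccnd2* (243 to 127), *Cdk4* (308 to 166), *Cdk6* (51.1 to 27.5), *Ccnd3* (89.0 to 52.9) and *Cdkn1b* (19.0 to 8.75) were lower in the highest.

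The late genes were near 0 in the lowest quartile of somatic cells and not in that of germ-like cells, although quartiles were set within each class and do not mark like positions between classes. In control Sertoli-like cells *Mki67* went from 1.87 to 275, *Ube2c* from 4.72 to 601 and *Ccnb1* from 1.87 to 106, with a median log2 ratio of 3.15 and 33 of 40 members past 1.5-fold higher and 0 lower (9.02% and 2.18% of all genes). Interstitial cells had a median of 2.49 and 37 of 41 past it higher and 0 lower (9.83% and 1.57%). The germ-like median was 1.01 in control and 0.97 in *Cnot3*-cKO. *Ube2c* was at 54.8 and *Cdc20* at 57.4 in the lowest quartile of control germ-like cells, where likely doublets and free RNA were not removed.

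Within these germ-like quartiles the genotypes were compared again. In the lowest quartile, which held 52 *Cnot3*-cKO cells, the G2/M genes themselves had a median of 3128 CPM in control and 3565 in *Cnot3*-cKO cells, so that it did not bring the libraries to the same level. The median log2 ratio of *Cnot3*-cKO over control within the 4 quartiles, from the lowest up, was 0.12, 0.06, 0.19 and 0.07. Past 1.5-fold, 8 members were higher and 4 lower in the lowest quartile (11% and 6.33% of all genes), 3 and 2 in the next (6.26% and 2.56%), 4 and 1 in the following quartile (8.01% and 3.42%) and 4 and 5 in the highest (6.97% and 5.57%). Over quartiles of the S phase genes the medians were 0.27, 0.21, 0.14 and 0.12. There 9 members were higher and 1 lower (7.43% and 5.88%), then 6 and 1 (5.4% and 3.53%), 8 and 2 (7.07% and 4.35%) and 3 and 2 (6.19% and 3.58%), from the lowest up. In the G2/M quartiles the ratio of *Ccnb1* was 1.19 (65.4 and 149 CPM), 0.75, 0.69 and 0.63 (358 and 556), and that of *Cdc20* 1.56 (57.4 and 169), 1.21, 0.95 and 0.73 (316 and 523). Both were higher in *Cnot3*-cKO in each quartile, by less toward the highest. *Mki67* was higher in the lowest (18.3 and 44.8, 1.29), with ratios of 0.10, 0.10 and −0.01 in the others. *Aurka* had ratios of −0.07, 0.06, 0.53 and 0.57, so that its difference lay in the upper quartiles, while *Plk1* was lower in the highest (84.8 and 67.1, −0.34). *Cdk6* was lower in each, from −0.66 to −0.88.

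**Figure D4:**
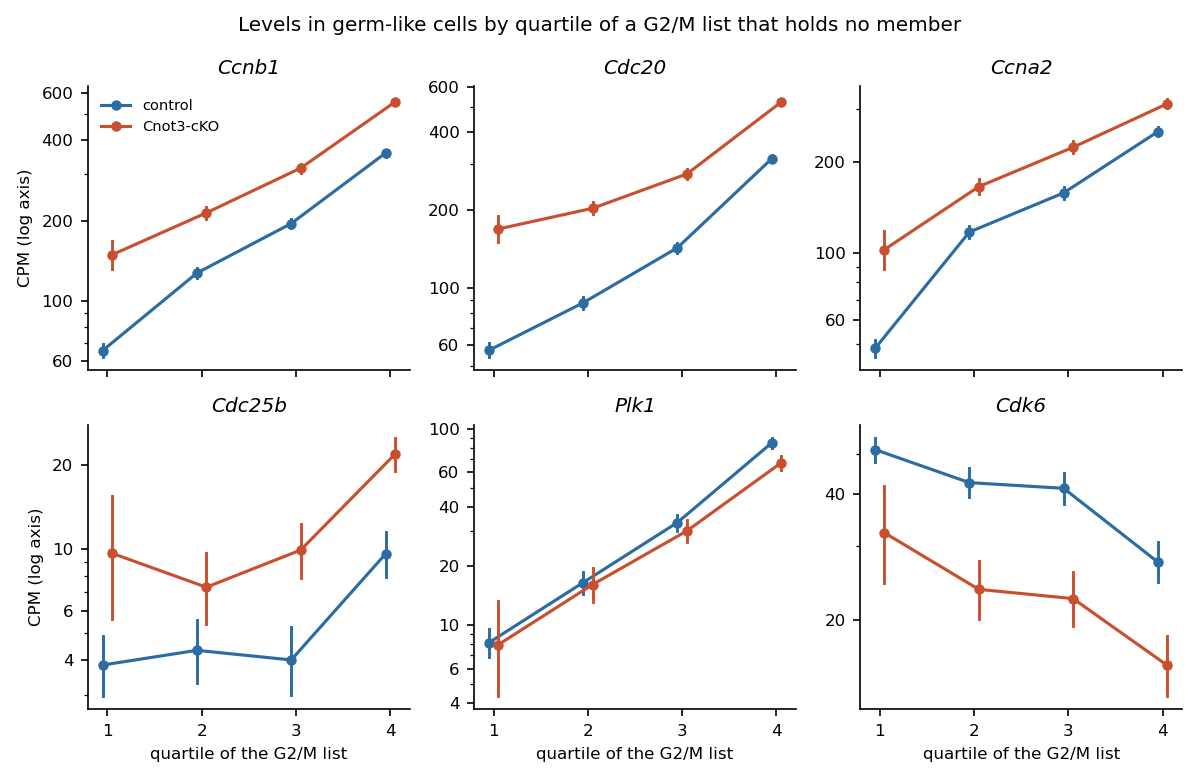
CPM (vertical axes, log scale) of 6 genes in germ-like cells by quartile of the share of UMIs in 36 G2/M genes that are not members (horizontal axis), control and *Cnot3*-cKO, with exact 95% counting intervals. *Ccnb1* and *Cdc20* lie higher in *Cnot3*-cKO in all 4 quartiles, *Cdk6* lies lower, and *Plk1* lies slightly lower in the highest (84.8 in control and 67.1 in *Cnot3*-cKO).

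The difference was also seen cell by cell. With each cell thinned to 10000 UMIs, so that depth does not enter, at least 1 UMI of *Ccnb1* was found in 64.6% of germ-like cells in control and 83.6% in *Cnot3*-cKO (91.0% and 95.7% unthinned). The share was 11.3% and 9.63% in Sertoli-like and 6.89% and 5.16% in interstitial cells, which also divide and so give no true blank. *Cdc20* was found in 61.3% and 83.3% of germ-like cells (89.6% and 96.1% unthinned) and 16.4% and 14.9% of Sertoli-like cells. *Ccnd1*, found in 59.1% and 65.5% of germ-like cells, was found in 1.95% and 1.75% of Sertoli-like cells, the lowest of these backgrounds. Germ-like cells too shallow to be thinned numbered 25 in control and 10 in *Cnot3*-cKO. More somatic cells were left out for this reason. Those kept were 2619 of 2884 control and 3895 of 4362 *Cnot3*-cKO Sertoli-like cells, and 3381 of 3702 and 3336 of 3933 interstitial cells.

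Counted together, the 14 members of mitosis and its approach (*Cdk1*, *Ccna2*, *Ccnb1*, *Ccnb2*, *Top2a*, *Mki67*, *Cenpf*, the 5 mitotic kinases and checkpoint genes, *Cdc20* and *Ube2c*) were seen 10 or more at a time in 23.8% of germ-like cells in control (21.5 to 26.2) and 46.4% in *Cnot3*-cKO (42.1 to 50.6). The shares were 24.6% and 50.3% in SSC-like and 37.4% and 50.8% in differentiating-like cells, and 2.06% in control progenitor-like cells. Germ-like cells with none of the 14 were rare, at 1 of 1309 in control and 0 of 550 in *Cnot3*-cKO, and the 0 cells counted allow a share of up to 0.668%. In Sertoli-like cells none was seen in 41.5% and 43.2%, and 10 or more in 10.2% and 8.24%. Interstitial cells had none in 55.5% and 60.3%, and 10 or more in 4.53% and 3.30%.

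In Sertoli-like and interstitial cells, where *Ddx4*-creER is not made, most members ran the other way. Of 43 members, 36 were lower in *Cnot3*-cKO Sertoli-like cells (median log2 ratio −0.18, all genes 0.04, with 60.8% of all genes higher), with 0 past 1.5-fold higher and 1 lower (1.11% and 0.977% of all genes). This was the inhibitor *Cdkn2b* (2.49 and 1.503 CPM, −0.73, −1.15 to −0.30). *Ube2c* was at 197 and 146 (−0.44), *Cdc20* at 59.0 and 43.6 (−0.44), *Ccna2* at 42.8 and 31.6 (−0.44) and *Ccnb1* at 35.4 and 28.3 (−0.32). The interval lay above 0 for *Cdkn1b* (0.13), *Cdkn2d* (0.11) and *Rb1* (0.19). The inhibitor *Cdkn2c* was lower in *Cnot3*-cKO, at 36.6 and 30.7 CPM, as *Cdkn2b* was.

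Interstitial cells showed the wider somatic difference, and the median lay farther from 0 there than in germ-like cells. Of 43 members, 39 were lower in *Cnot3*-cKO (median −0.37, all genes −0.02, with 44.5% of all genes higher), with 0 past 1.5-fold higher and 9 lower (1.33% and 1.06% of all genes). *Ccnb1* was at 25.6 in control and 15.1 in *Cnot3*-cKO (−0.76, −0.89 to −0.64), *Ube2c* at 65.6 and 41.4 (−0.66, −0.74 to −0.59), *Plk1* at 10.7 and 6.75 (−0.67) and *Cdc20* at 40.1 and 26.2 (−0.62, −0.71 to −0.52). *Aurka*, *Aurkb*, *Cdc25c*, *E2f2* and *E2f8* were the other 5. Of the 43, 4 (*Ccnb1*, *Aurka*, *Cdc20* and *Ube2c*) were past 1.5-fold higher in germ-like and past it lower in interstitial cells and 0 the reverse, against 0.104% and 0.0174% of 11527 genes counted in both. *Cdkn1b* was at 40.5 and 43.3 (0.10, 0.01 to 0.18). Fewer interstitial cells of *Cnot3*-cKO lay in the highest G2/M quartile of their class (21.3% against 28.9% of control). Within the G2/M quartiles the median ratio was between −0.12 and −0.10. From the lowest up, 0 of 23, 1 of 25, 0 of 25 and 0 of 42 members were past 1.5-fold lower, and 0 higher. Of all genes, 0.46%, 0.78%, 0.70% and 0.58% were past it lower. Within quartiles of the S phase genes the medians were −0.04, −0.14, −0.10 and −0.09, from the lowest up. There 0 of 26, 6 of 29, 9 of 33 and 0 of 42 members were past 1.5-fold lower (0.75%, 0.74%, 1.18% and 0.66% of all genes) and 0 higher. For Sertoli-like cells the shares in the highest G2/M quartile were 27.0% in control and 23.7% in *Cnot3*-cKO. Within their G2/M quartiles the medians were 0.05, −0.01, −0.09 and −0.04, from the lowest up. There 0 of 27, 0 of 27, 0 of 28 and 0 of 41 members were past 1.5-fold lower and 0 higher. The shares of all genes past it lower were 0.59%, 0.59%, 0.83% and 0.69%. Within their S phase quartiles the medians were −0.01, −0.13, −0.29 and −0.06. Past 1.5-fold, 1 of 27, 9 of 31, 8 of 37 and 0 of 41 members were lower there (0.68%, 0.85%, 1.06% and 0.80% of all genes).

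**Figure D5:**
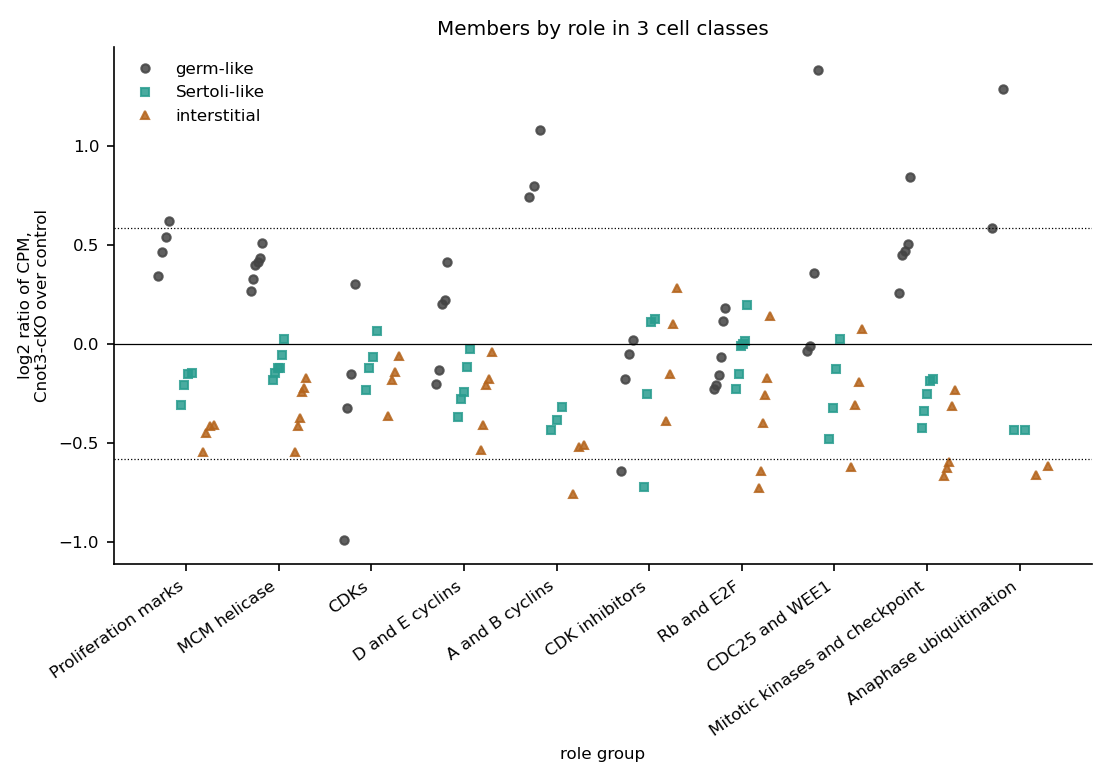
Log2 ratio of *Cnot3*-cKO over control CPM (vertical axis) for each gene, grouped by role (horizontal axis), in germ-like, Sertoli-like and interstitial cells. Each point is 1 gene in single libraries; the A and B cyclins and anaphase genes lie above 0 in germ-like cells and below 0 in the other classes.

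Macrophage-like cells were too few for most members, with 55 control and 63 *Cnot3*-cKO cells and 17 members above the minimum. Of these, 0 were past 1.5-fold higher and 8 lower, against 7.16% and 6.41% of all genes. *Ube2c* was at 148 and 17.6 CPM, *Cenpf* at 184 and 35.2, *Top2a* at 175 and 67.8 and *Mki67* at 143 and 61.6. Germ markers summed to 380 in control and 17.6 in *Cnot3*-cKO macrophage-like cells, and their part in this was not tested. Endothelial-like cells had 7 members above the minimum and are not compared.

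Other genes of the pathway, taken by list, ran beside the members in germ-like cells. Of 36 G2/M genes outside the 44, 33 were higher in *Cnot3*-cKO, 7 were past 1.5-fold higher and 0 lower (6.71% and 3.15% of all genes), and the median log2 ratio was 0.38 (0.02 over all genes). Without the clusters held by 1 library, 2 were past it higher and 1 lower, and the median was 0.27. Among them *Gtse1*, a microtubule-binding G2 gene, was at 19.4 and 42.5 (1.13) and the kinesin *Kif2c* had a ratio of 0.80. Of 35 S phase genes, 30 were higher, 1 was past 1.5-fold, and the median was 0.18, with the primase subunit *Prim1* at 55.1 and 97.7 (0.83). Without the 1-library clusters the S phase median was 0.063 and no gene of that list was past 1.5-fold. Origin licensing gave a median of 0.10 over 12 genes, with *Mcm10* at 28.0 and 47.6 (0.76) and the licensing factor *Cdt1* at 56.3 and 87.4 (0.63). These lists were put together with earlier results of the same data known.

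Of the remaining lists, the inhibitors outside the 44 held the widest ratio. *Cdkn1a*, encoding the p53 target p21, was at 6.51 against 30.1 CPM in germ-like cells, control first (2.21, 2.03 to 2.39), *Cdkn3* had a ratio of 0.58 and *Cdkn1c* of −0.29. *Cdkn1a* was at 3.14 and 1.24 in Sertoli-like and 1.62 and 3.11 in interstitial cells. The 12 genes of MuvB and of DREAM, which represses cell cycle genes in resting cells, had a median of −0.01, with 0 past 1.5-fold. The 16 subunits of the anaphase-promoting complex had a median of 0.07 with 0 past it. *E2f7* and *E2f6* had ratios of 0.48 and −0.40. Of the antiproliferative BTG and TOB genes, whose proteins bind CCR4-NOT, 5 were counted with a median of 0.16 and 0 past 1.5-fold. *Btg2* was at 43.7 and 64.8 in germ-like cells (0.57) and 210 and 545 in interstitial cells (1.38). In interstitial cells the G2/M list had a median of −0.44 with 0 of its genes higher in *Cnot3*-cKO, and the S list −0.35 with 1 higher.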

How the data were processed

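The authors aligned reads to mm10 with Cell Ranger 3.0.1 (Ensembl 93) and deposited unfiltered UMI counts, 1 matrix per genotype. Depth was 181550221 control and 168770743 *Cnot3*-cKO UMIs. Members and gene lists were chosen with earlier results of these data known. Barcodes above the 99th percentile of UMIs in the top 3000 divided by 10, with at most 20% mitochondrial UMIs, were kept, which left 8259 and 9268. The filters stated for the study (10%, and 2 SD bounds) left 5615 and 6034 and were an alternative, because their upper bound removes many germ cells; both sets hold more cells than the study gives. Barcodes were filtered with Cell Ranger in the study, with settings not given in the sources used here. Counts per 10000 were clustered (scanpy 1.11.5, igraph 0.11.9, 2500 variable genes, 30 components, 15 neighbours, resolution 0.5) without members and other cell cycle, histone and mitochondrial genes, and a cluster was named where at least 3 markers passed 2-fold in at least 10% of its cells. Scrublet marked 5.98% and 4.86% of called barcodes. UMIs were summed per class and library. Levels have exact Poisson, ratios exact conditional and shares Clopper-Pearson intervals (scipy 1.17.1); a member was counted past 1.5-fold where both libraries together held at least 100 UMIs. The computation was tested on simulated counts. Full values are given by rule for members past 1.5-fold in germ-like cells and the best counted member of each role, and for the list genes of most extreme ratio; other genes were named after their values were seen. Alternatives numbered 53, with 3 more chosen after seeing the data.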

Additional observations from a re-analysis of the deposited data

Results flagged for a closer look

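The ratio of *Cnot3*-cKO over control pointed in opposite directions in germ-like and interstitial cells, past 1.5-fold in both, for 4 members. Of 11527 genes counted in both classes, 0.104% were past it upward in germ-like and downward in interstitial cells, as these 4 were, and 0.0174% the other way. *Ccnb1* had a log2 ratio of 1.08 in germ-like and −0.76 in interstitial cells. *Cdc20* had 1.29 and −0.62, *Aurka* 0.84 and −0.63, and *Ube2c* 0.59 and −0.66. With 1 library per genotype, the difference between the classes was not tested.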

How the results depend on the processing

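With 1 merged library per genotype, no value here carries animal-to-animal error, and leaving out a replicate was not possible. No paired analysis was possible because the samples of a genotype were merged in 1 matrix. The median log2 ratio in germ-like cells (0.30) came to 0.18 under the study's stated filters, to 0.18 with at most 10% mitochondrial UMIs and to 0.15 with clusters weighted as in control. The 8 members past 1.5-fold higher became 5 under the stated filters and 4 without 1-library clusters. The 2 lower became 1 at 10% mitochondrial UMIs, 0 with clusters reweighted, 0 without 1-library clusters and 1 without the 253-cell *Cnot3*-cKO cluster, and *Cdkn1b* went from −0.64 to 0.064 with clusters reweighted. In SSC-like cells the median of 0.41 came to 0.25 at 10% mitochondrial UMIs. The 2 lower became 1 under the stated filters, at 10%, without likely doublets, with at least 300 UMIs and without the 253-cell cluster. These 2 also became 1 with genes centred within library before clustering. In differentiating-like cells the 3 higher became 1 with genes so centred. The 0 lower became 4 under the stated filters, 1 at 10% and 1 with each cell weighted the same. The 1 lower in Sertoli-like cells became 0 under the stated filters, at 10% and with at least 300 UMIs. Division at the median in place of quartiles gave medians, control then *Cnot3*-cKO, of 0.57 and 0.34 (G2/M) and 0.55 and 0.30 (S) in germ-like, 2.17 and 2.10, then 2.55 and 2.53 in Sertoli-like, and 1.64 and 1.61, then 2.11 and 2.04 in interstitial cells. Under the stated filters the *Cnot3*-cKO median of germ-like over Sertoli-like cells went from 1.37 to 1.12, and over interstitial cells from 2.31 to 2.15. The cause was not tested for any of these. The interstitial median stayed between −0.40 and −0.35.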
